A study of Mus musculus with 4 samples.

Results

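Vegfa and 9 further genes of the hypoxia response were followed in RNA from 3D-cultured mouse mammary cells treated with baicalin or with its solvent DMSO. The genes are Vegfa, Adm, Hif1a, Egln1, Egln3, Ndrg1, Bnip3, Ankrd37, Pdk1 and Car9, 10 of the 54446 genes in the deposited table. They were chosen by symbol, with earlier results of these data known. All cells came from wild type C57BL/6 mammary gland, were sorted as basal or luminal cells, embedded in growth factor-reduced Matrigel and kept in medium with EGF. By their labels, the 4 groups are basal cells with DMSO, basal cells with 100 μM baicalin, luminal cells with DMSO and luminal cells with 100 μM baicalin. Each group is represented by 1 library, and markers given below went against the cell labels. Baicalin is a plant flavonoid that carries a glucuronic acid. The methods of the study give an age of 6 to 9 weeks for virgin females, with other females taken at set stages, and do not tie an age, a number of mice or a day of harvest to a library. Because each group holds 1 library, there is no spread between replicates, no test between groups was made, and every difference below is one between libraries.

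Cells sense oxygen through the transcription factor HIF, a pair of an unstable alpha subunit, such as the product of Hif1a, and a stable partner encoded by Arnt. When oxygen is present, prolyl hydroxylases encoded by Egln1, Egln2 and Egln3 mark the alpha subunit for the ubiquitin ligase that holds the product of Vhl, and the subunit is destroyed. When oxygen is low, the subunit persists and switches on genes for vessel growth, glucose use, pH control and mitochondrial turnover. Hif1a is therefore regulated mostly at the protein level, and mRNA does not report the amount of the protein. In the mammary gland, Vegfa is made by the epithelium and acts on the vessels around it. Vegfa and Adm are also known to respond to stress factors other than HIF, such as ATF4.

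Between 19356119 and 20648810 fragments lay behind a library, with levels given as FPKM, the fragments of a gene scaled by its exon length and by the depth of the library, and 1 fragment per 1 kb amounting to 0.0484 to 0.0517 FPKM. Basal and luminal are used here as labels, because markers went against them. All 10 basal markers were higher under the luminal label than under the basal label, both with DMSO and with baicalin. Of 10 luminal markers, 9 were higher in the library labelled basal with DMSO, and all 10 were with baicalin. Summed FPKM of the basal markers went from 1761 with DMSO to 479 with baicalin in the pair labelled basal, and from 5404 to 7199 in the pair labelled luminal. Single genes weighed on these sums, the highest marker having 1494 and 417 FPKM under the basal label and 2308 and 3132 FPKM under the luminal label. By gene, 9 of the 10 were lower with baicalin under the basal label, while 5 were higher and 5 lower under the luminal label. Krt17 rose there by more than 1 on the log2 scale, and Tagln, Cnn1 and Oxtr fell. The luminal markers summed to 4131 and 2545 FPKM in the pair labelled basal, and to 1316 and 1012 FPKM in the pair labelled luminal. Each pair thus differed in its epithelial markers as well as in treatment, and in bulk RNA fewer cells of a type and less RNA per cell cannot be told apart. The 8 endothelial markers summed to between 1.44 and 4.80 FPKM, with no marker at 0 and none above 1.34 FPKM. Adipocyte markers summed to 15.8 FPKM with DMSO and 5.45 FPKM with baicalin in the pair labelled luminal, and to at most 0.884 FPKM in the pair labelled basal, where Cidec was at 0 in both libraries. Immune markers summed to between 5.45 and 53.7 FPKM, of which Cd68 made up to 51.5 FPKM, while Cd3e was at 0 in 3 libraries and Ptprc at 0 in the library labelled basal with baicalin. Fibroblast markers summed to between 2.60 and 10.4 FPKM. The part of these cell type differences in the results was not tested.

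HIF binds a core of 5 letters, ACGTG or GCGTG, which reads CACGT or CACGC when it lies on the opposite strand. RefSeq start sites on GRCm38.p6 were found for 9 of the 10 genes. Of 32851 windows of 250 bases upstream of a start site, 38.6% held a core on either strand, and 16.6% held ACGTG. Among the 11 windows of these genes, 9 held a core and 7 held ACGTG, and among 64 windows of other HIF targets 49 held a core. The first sequence below is the upstream window of Vegfa, whose RNA rose with baicalin under both labels. That window held no core, unlike the downstream window of Vegfa. Adm had higher RNA under both labels, and its window held 2. Bnip3 and Egln3 moved oppositely under the labels, and Car9 was lower under both. The sequences run 5′ to 3′ on the strand of the gene, with matches to the core in capitals. They leave out bases annotated as exon except at Car9.
Vegfa, chr17:46032378-46032627, minus strand: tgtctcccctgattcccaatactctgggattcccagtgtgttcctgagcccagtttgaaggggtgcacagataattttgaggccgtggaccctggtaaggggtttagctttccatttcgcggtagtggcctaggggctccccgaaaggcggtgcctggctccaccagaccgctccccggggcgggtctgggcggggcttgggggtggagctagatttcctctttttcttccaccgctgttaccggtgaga
Adm, chr7:110627407-110627656, plus strand: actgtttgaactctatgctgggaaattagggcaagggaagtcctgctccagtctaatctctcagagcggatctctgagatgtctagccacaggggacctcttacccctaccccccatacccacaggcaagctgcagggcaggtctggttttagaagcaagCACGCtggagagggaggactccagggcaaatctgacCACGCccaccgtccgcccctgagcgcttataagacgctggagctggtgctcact
Bnip3, chr7:138909520-138909756, minus strand: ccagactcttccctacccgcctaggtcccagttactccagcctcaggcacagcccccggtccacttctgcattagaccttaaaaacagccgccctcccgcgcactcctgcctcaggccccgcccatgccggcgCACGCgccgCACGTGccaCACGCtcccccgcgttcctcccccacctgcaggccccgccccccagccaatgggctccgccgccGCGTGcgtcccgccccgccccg
Egln3, chr12:54203875-54204124, minus strand: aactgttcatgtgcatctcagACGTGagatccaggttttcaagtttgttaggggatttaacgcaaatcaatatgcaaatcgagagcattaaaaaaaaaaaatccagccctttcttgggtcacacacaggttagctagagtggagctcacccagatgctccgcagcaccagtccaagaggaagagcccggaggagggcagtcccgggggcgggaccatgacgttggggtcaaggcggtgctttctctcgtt
Car9, chr4:43506996-43507024, plus strand: ctatttccgatgCACGTacagcccgtcca
In Bnip3 the ACGTG matches on both strands are 1 palindrome, CACGTG, which is also the E-box read by other factors, and 3 further GCGTG matches lay within 117 bases of the start. Hif1a held 1 such palindrome and a further ACGTG 70 bases upstream. The match of Car9 began 18 bases upstream of the RefSeq start, inside an annotated exon. At Vegfa a second, downstream RefSeq start held 1 GCGTG and 1 ACGTG, both in annotated exon sequence. A match describes letters only, and the absence of one says nothing of sites outside the window.

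**Figure D1:**
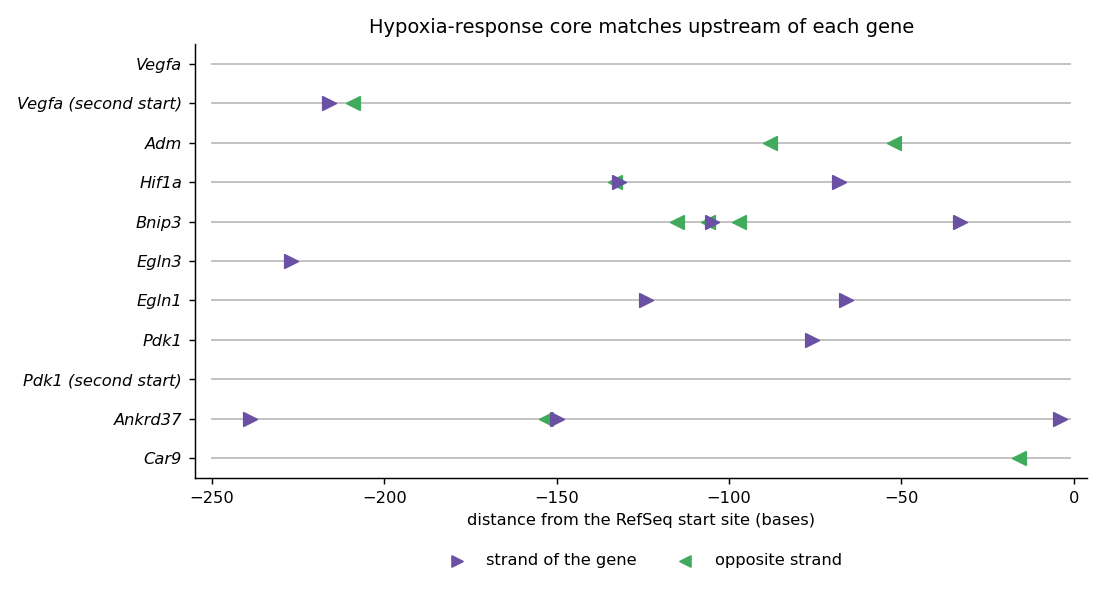
Matches to the 5-letter HIF core in the 250 bases upstream of each RefSeq start site, with distance from the start in bases on the horizontal axis and 1 line per start site. Arrowheads give the strand, overlapping arrowheads are matches that share letters, the upstream start of Vegfa has none, Bnip3 has 5, and Ndrg1 is not drawn because no window was found for it.

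The largest change with baicalin among the 10 genes was that of a secreted ligand in both pairs, Vegfa under the basal label and Adm under the luminal label. Vegfa (ENSMUSG00000023951, GRCm38 chromosome 17, 46016993 to 46032369) encodes the main growth factor of blood vessels. It had 27.3 FPKM with DMSO and 107 FPKM with baicalin under the basal label, and 17.7 and 75.1 FPKM under the luminal label. Both baicalin libraries were thus above both DMSO libraries. The FPKM ratio was 3.90 (95% counting interval 3.72 to 4.08) in the pair labelled basal and 4.24 (4.01 to 4.49) in the pair labelled luminal. These intervals, exact Clopper-Pearson from 1468 to 9260 fragments per library, cover counting error alone. On the scale of log2(FPKM + 1) used for calls, Vegfa rose by 1.92 and 2.02, and 0.275% and 0.309% of the 17787 genes above 0 in all libraries rose further. Gene-level FPKM does not separate the splice forms of Vegfa.

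Adm (ENSMUSG00000030790, chromosome 7, 110627661 to 110629820) encodes adrenomedullin, a peptide that widens vessels and seals lymphatic walls. It had 16.7 FPKM with DMSO and 32.3 FPKM with baicalin under the basal label, and 2.97 and 24.6 FPKM under the luminal label. The 4 libraries kept the same order as for Vegfa, and each step of that order exceeded the counting error for both genes. In the pair labelled luminal Adm rose 8.30-fold (6.69 to 10.4), a log2 change of 2.69 that 0.0843% of genes exceeded. In the pair labelled basal the ratio was 1.93 (1.74 to 2.15) and the log2 change of 0.91 fell short of the threshold of 1. The library that stood apart was the one labelled luminal with DMSO, 5.63-fold (4.51 to 7.09) below its basal-labelled counterpart, whereas with baicalin the 2 libraries differed by 1.31-fold (1.20 to 1.44).

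The signalling receptors of both ligands were low. Of 9 other VEGF ligands and receptors, none passed 1 on the log2 scale in the pair labelled basal, where 2.15% of genes rose and 3.33% fell. Under the luminal label 1 rose and 1 fell, where 2.37% and 1.59% of genes did. The median log2 change of these 9 genes was 0.15 and 0.25 in that order of labels, beside 0.01 and -0.02 over all 17787 genes. The second of these moved to 0.88 with a pseudocount of 0.1 FPKM, to 1.18 with none and to 0.57 on the TPM scale (FPKM rescaled so that every library has the same sum). Nrp2, a co-receptor, went from 3.66 to 18.6 FPKM under the luminal label, a log2 change of 2.07, and had 19.3 and 20.97 FPKM under the basal label. Pgf, a ligand of the receptor encoded by Flt1, fell from 2.44 to 0.551 FPKM under the luminal label and is named here after its values were seen. Vegfb had 6.34 and 10.6 FPKM under the basal label and 6.53 and 7.42 FPKM under the luminal label. Kdr, the main signalling receptor for Vegfa and a gene of endothelial cells, had at most 0.359 FPKM in any library. Flt1, which binds both Vegfa and Pgf, had 0.914 and 0.157 FPKM under the basal label and 0.570 and 1.29 FPKM under the luminal label. Among 6 adrenomedullin partners, Adm2, a related peptide, rose from 2.48 to 6.42 FPKM and from 0.398 to 4.59 FPKM. Ackr3, which takes up adrenomedullin without signalling through G proteins, fell from 1.26 to 0.118 FPKM and from 6.57 to 2.44 FPKM. Ramp1 had 4.37 and 5.60 FPKM under the basal label and 8.94 and 5.35 FPKM under the luminal label. Ramp2 was at 0 in the library labelled basal with DMSO and so was left out of the genes above 0 in all libraries. Calcrl, which encodes the receptor itself, had between 0.268 and 1.002 FPKM. Kdr, Flt1, Ramp2 and Calcrl are named for their roles, after their values were seen.

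Of the oxygen-sensing genes among the 10, Hif1a and Egln1 stayed within the threshold in both pairs and Egln3 rose in the pair labelled basal. Hif1a (ENSMUSG00000021109, chromosome 12, 73901375 to 73947530), which encodes the regulated HIF subunit, had 24.2 FPKM with DMSO and 35.7 FPKM with baicalin under the basal label, and 27.9 and 46.9 FPKM under the luminal label. It was higher with baicalin in both pairs, 1.48-fold (1.41 to 1.55) and 1.68-fold (1.61 to 1.75), without reaching the threshold in either. Hif1a shares 478 exon bases with overlapping genes. Egln1 (ENSMUSG00000031987, chromosome 8, 124908587 to 124949324), the main hydroxylase that marks HIF, lay in the narrowest range of the 10 genes. It had 9.01 and 10.6 FPKM under the basal label, a ratio of 1.18 (1.06 to 1.31), and 12.03 and 10.51 FPKM under the luminal label, a ratio of 0.874 (0.791 to 0.964). Its highest library was 1.34 times its lowest.

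Egln3 (ENSMUSG00000035105, chromosome 12, 54178981 to 54203860) encodes a hydroxylase that is itself a HIF target and so part of a feedback loop. It had 3.14 FPKM with DMSO and 7.67 FPKM with baicalin under the basal label, and 3.32 and 1.56 FPKM under the luminal label. The DMSO libraries did not differ beyond the counting error, and the baicalin libraries lay on opposite sides of them. The gene rose 2.44-fold (2.03 to 2.94) in the pair labelled basal, a log2 change of 1.07, and was lower in the pair labelled luminal with a ratio of 0.471 (0.360 to 0.614) and a log2 change of -0.75. Of 16 further HIF subunits and sensing genes, 15 were above 0 in all libraries and none of these passed 1 in either pair, with medians of 0.02 and -0.04. Over all genes, 2.15% rose and 3.33% fell in the pair labelled basal, and 2.37% rose and 1.59% fell in the pair labelled luminal. Epas1, which encodes a second alpha subunit, had 7.65 and 9.68 FPKM under the basal label and 32.2 and 18.1 FPKM under the luminal label. Vhl had 6.64 and 7.29 FPKM, and 9.998 and 7.43 FPKM. Cited2, a HIF target that competes with HIF for its co-activator, had 58.9 and 69.8 FPKM, and 32.6 and 43.5 FPKM. The ligase genes Siah1a and Siah2 had log2 changes of 0.43 and 0.36 in the pair labelled basal, and Eloc, a subunit of the Vhl ligase, one of -0.36.

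Ndrg1, Bnip3 and Ankrd37 are HIF targets that act inside the cell. Ndrg1 (ENSMUSG00000005125, chromosome 15, 66929318 to 66969640), a stress and differentiation gene, had 28.2 FPKM with DMSO and 52.0 FPKM with baicalin under the basal label, and 46.2 and 23.1 FPKM under the luminal label. The order of the DMSO libraries was reversed between the baicalin libraries. The ratios were 1.84 (1.77 to 1.92) and 0.499 (0.478 to 0.521), and the log2 changes of 0.86 and -0.97 both stopped short of the threshold. Ndrg1 shares 556 exon bases with 2 genes on the opposite strand, and whether the counting used strand is not stated in the sources used here.

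Bnip3 (ENSMUSG00000078566, chromosome 7, 138890836 to 138909519) encodes a mitochondrial protein that marks mitochondria for autophagy. It had 4.45 and 10.8 FPKM under the basal label, and 5.61 and 4.49 FPKM under the luminal label. The library labelled basal with baicalin stood above the other 3, which lay between 4.45 and 5.61 FPKM. Bnip3 rose 2.44-fold (2.06 to 2.89) in the pair labelled basal, a log2 change of 1.12, and had a ratio of 0.800 (0.662 to 0.966) in the pair labelled luminal. Stretches of Bnip3 are at least 95% identical to 5 other genes, but these held at most 6 fragments in a library, and the ratios of the sums were 2.38 and 0.800. It also shares 504 exon bases with a gene on the opposite strand. Ankrd37 (ENSMUSG00000050914, chromosome 8, 45996902 to 46005707), which encodes an ankyrin repeat protein, was the lowest of the 10 genes in every library. It had 1.60 and 1.95 FPKM under the basal label, with a ratio whose interval of 0.823 to 1.81 included 1, and 1.28 and 0.692 FPKM under the luminal label, with a ratio of 0.543 (0.306 to 0.941) from 38 and 22 fragments. It also shares 406 exon bases with Ufsp2 and Lrp2bp on the opposite strand.

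Pdk1 and Car9, which act in metabolism and pH control, rose in neither pair. Pdk1 (ENSMUSG00000006494, chromosome 2, 71873224 to 71903858) encodes the kinase that turns pyruvate away from mitochondria. It had 4.07 and 4.41 FPKM under the basal label, a ratio of 1.08 whose interval of 0.971 to 1.21 included 1, and 8.73 and 5.01 FPKM under the luminal label, a ratio of 0.574 (0.525 to 0.627). The library labelled luminal with DMSO was the highest of the 4. Car9 (ENSMUSG00000028463, chromosome 4, 43506966 to 43513729) encodes a surface carbonic anhydrase and is a widely used marker of hypoxic cells. Car9 had 4.92 and 2.12 FPKM under the basal label, and 5.20 and 2.25 FPKM under the luminal label. Both baicalin libraries lay below both DMSO libraries, and neither the 2 DMSO nor the 2 baicalin libraries differed beyond the counting error. The ratios were 0.431 (0.337 to 0.548) and 0.432 (0.341 to 0.546), and the log2 changes of -0.92 and -0.93 came close to the threshold. Car9 shares 214 exon bases with a gene on the opposite strand.

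**Figure D2:**
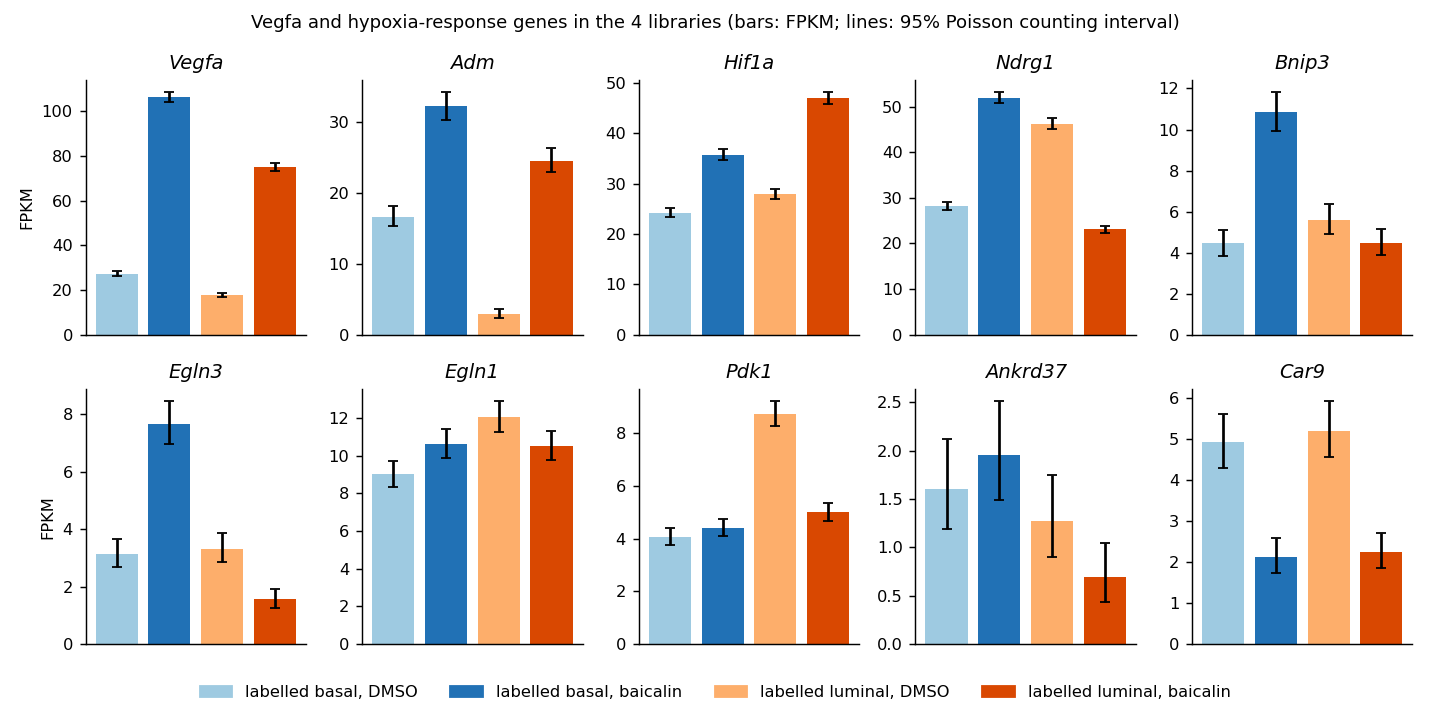
FPKM of each of the 10 genes in the 4 libraries, with a separate linear axis from 0 for each gene and bars coloured by label and treatment. Lines are 95% Poisson counting intervals, and a reader should see Vegfa, Adm and Hif1a higher with baicalin under both labels, Car9 lower under both, and Ndrg1, Bnip3 and Egln3 moving in opposite directions, for example from 28.2 to 52.0 FPKM and from 46.2 to 23.1 FPKM for Ndrg1.

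All 10 genes were above 0 in every library. In the pair labelled basal, 3 of them (Vegfa, Bnip3 and Egln3) rose by more than 1 on the log2 scale, where 2.15% of the 17787 genes did, and none fell by more than 1, where 3.33% did. In the pair labelled luminal, 2 of them (Vegfa and Adm) rose, where 2.37% of genes did, and none fell, where 1.59% did. The 10 genes and the gene lists were chosen with earlier results of these data known. Their counts are therefore not independent of these values. The median log2 change of the 10 genes was 0.70 under the basal label and -0.35 under the luminal label. Without the added FPKM, Car9 fell by more than 1 in both pairs, and Egln3 and Ndrg1 did in the pair labelled luminal.

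Counting intervals mark smaller differences, and the more fragments a gene has, the smaller the difference they mark. The shares of all genes given here and below were not matched to the 10 genes for fragments. By these intervals, 7 of the 10 genes were higher and 1 was lower in the pair labelled basal. The shares were 32% and 29.9% of 15006 genes with more than 3 fragments in each library. In the pair labelled luminal 3 of the 10 genes were higher and 7 lower, where 25.6% and 32.6% of those 15006 genes were. Vegfa, Adm and Hif1a were higher in both pairs, as were 13.3% of genes, and Car9 was lower in both, as were 16% of genes. Bnip3, Egln1, Egln3 and Ndrg1 were higher in the pair labelled basal and lower in the pair labelled luminal, as were 6.31% of genes, and none had the reverse pattern, as did 5.96% of genes. Of 55 other HIF targets, 2 (Bhlhe41 and Ccng2, named after their values were seen) were higher in the pair labelled basal and lower in the pair labelled luminal. Another 18 (32.7%) were higher in both pairs, where 13.3% of genes were, and 7 (12.7%) were lower in both, where 16% were. These shares were not matched for fragments either. The 55 include Epo, which was not above 0 in all libraries, and the 18 include Gapdh, whose fragments are uncertain. The log2 change under the basal label exceeded that under the luminal label by 1.83 for Ndrg1, 1.82 for Egln3, 1.39 for Bnip3 and 0.39 for Egln1, while for Adm it was smaller by 1.78. For Vegfa the changes were 0.10 apart and for Car9 0.01 apart. With 1 library per group these differences between labels were not tested.

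**Figure D3:**
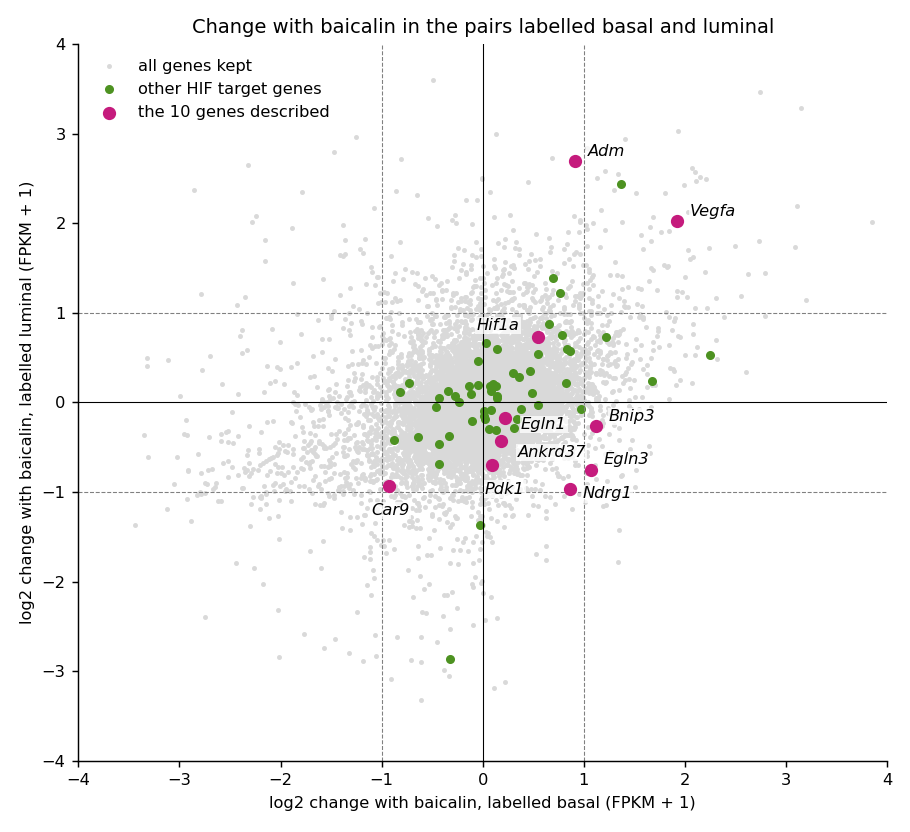
Log2 change with baicalin (FPKM + 1) under the basal label on the horizontal axis and under the luminal label on the vertical axis, with all genes kept in grey, 54 other HIF targets in green and the 10 genes named. Dashed lines mark the threshold of 1, 7 genes lie outside the axes at 4, and Vegfa at 1.92 and 2.02 lies upper right while Ndrg1 at 0.86 and -0.97 lies lower right.

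The labels were also set against each other under one treatment, a comparison that uses the same 4 libraries. With DMSO, Adm was the only one of the 10 genes past 1 on the log2 scale, lower under the luminal label by 2.16, where 3.86% of genes were lower and 4.71% higher. Pdk1 had the largest positive difference, 0.94, with a ratio of 2.14 (1.95 to 2.36). By counting intervals 5 of the genes were higher under the luminal label and 2 lower, where 33.3% and 34.4% of genes were. With baicalin, Egln3, Ndrg1 and Bnip3 were lower under the luminal label by more than 1, at -1.76, -1.14 and -1.11, where 2.99% of genes were lower and 5.24% higher. By counting intervals 2 were then higher under the luminal label and 6 lower, where 27.8% and 38.5% of genes were. The median difference of the 10 genes was 0.13 with DMSO and -0.44 with baicalin. Within a library, Ndrg1 had the highest FPKM of the 10 genes in both DMSO libraries and Vegfa in both baicalin libraries.

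Further HIF targets moved in both directions, with medians of 0.09 and 0.11 over 54 genes, beside 0.01 and -0.02 over all genes. Of 22 genes of glucose use, 1 rose and none fell by more than 1 in the pair labelled basal, where 2.15% and 3.33% of genes did. Under the luminal label 1 rose and 1 fell, where 2.37% and 1.59% of genes did. The medians of these 22 genes were -0.0038 and 0.13. Slc2a1, the glucose transporter, had 27.6 and 49.9 FPKM under the basal label and 30.1 and 46.1 FPKM under the luminal label. Hk2, a hexokinase, rose from 4.22 to 12.7 FPKM under the luminal label and had 10.01 and 16.8 FPKM under the basal label. Gbe1, which branches glycogen, had log2 changes of 0.87 and 0.57. Ldha, which makes lactate, had 162 and 87.9 FPKM under the basal label and 138 and 103 FPKM under the luminal label. Aldoc, an aldolase, fell from 17.0 to 5.97 FPKM under the luminal label and had 11.01 and 10.8 FPKM under the basal label. Gapdh went from 6.52 to 34.8 FPKM under the basal label, but it shares near-identical stretches with 83 other genes, so that its fragments are uncertain.

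Among 33 HIF targets outside glucose use, 32 were above 0 in all libraries, the exception being Epo. In the pair labelled basal 3 of these rose and none fell, where 2.15% and 3.33% of genes did. Under the luminal label 2 rose and 1 fell, where 2.37% and 1.59% of genes did. The medians of these 32 genes were 0.13 and 0.03. Lox, which cross-links collagen, rose in both pairs, from 4.04 to 12.04 FPKM and from 1.24 to 11.1 FPKM. Stc2, a secreted glycoprotein, rose from 6.70 to 23.5 FPKM under the basal label and had 13.1 and 15.6 FPKM under the luminal label. Ero1l, an oxidase of the endoplasmic reticulum, rose from 20.5 to 48.8 FPKM under the basal label and had 13.7 and 23.4 FPKM under the luminal label. P4ha2, a collagen hydroxylase, rose from 1.13 to 3.97 FPKM under the luminal label and had 3.09 and 5.95 FPKM under the basal label. Cxcr4, a chemokine receptor, fell from 12.3 to 0.830 FPKM under the luminal label and had at most 0.697 FPKM under the basal label.

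Close relatives of the 10 genes were listed as well. Of 9 paralogs, 8 were above 0 in all libraries. Of these, 1 rose and 1 fell in the pair labelled basal, where 2.15% and 3.33% of genes did. Under the luminal label 1 rose and none fell, where 2.37% and 1.59% of genes did. The medians were -0.02 and -0.33, beside 0.70 and -0.35 for the 10 genes. Pdk4, a kinase of the same family as Pdk1, rose in both pairs, from 4.73 to 10.6 FPKM and from 1.81 to 10.1 FPKM. Pdk3 fell from 9.60 to 4.12 FPKM under the basal label and had 11.96 and 7.34 FPKM under the luminal label. Pdk2 had 2.61 and 3.90 FPKM, and 6.29 and 2.71 FPKM. Ndrg4 was higher in both pairs, with 11.8 and 18.4 FPKM and with 3.00 and 6.98 FPKM, where Ndrg1 moved in opposite directions.

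ATF4 and 11 of its targets all had a log2 change above 0 in both pairs, as had 50.9% and 45.6% of all genes kept. Of the 12 genes, 5 rose by more than 1 in each pair, where 2.15% and 2.37% of genes did, and none fell. The medians were 0.88 and 0.86, beside 0.01 and -0.02 over all genes. Trib3, a pseudokinase that restrains ATF4, rose from 20.1 to 90.5 FPKM and from 4.98 to 32.2 FPKM. Chac1, which degrades glutathione, rose from 2.86 to 14.3 FPKM and from 0.726 to 8.25 FPKM. Sesn2 rose from 6.45 to 28.1 FPKM and from 10.6 to 26.2 FPKM. Asns, asparagine synthetase, rose from 20.4 to 52.7 FPKM under the luminal label and had 32.9 and 66.1 FPKM under the basal label. The remaining calls were Ddit3 and Vldlr under the basal label and Phgdh under the luminal label, named after their values were seen. The list was chosen with earlier results of these data known, so its counts are not independent of these values. The part of ATF4 and its targets in the level of Vegfa was not tested.

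**Figure D4:**
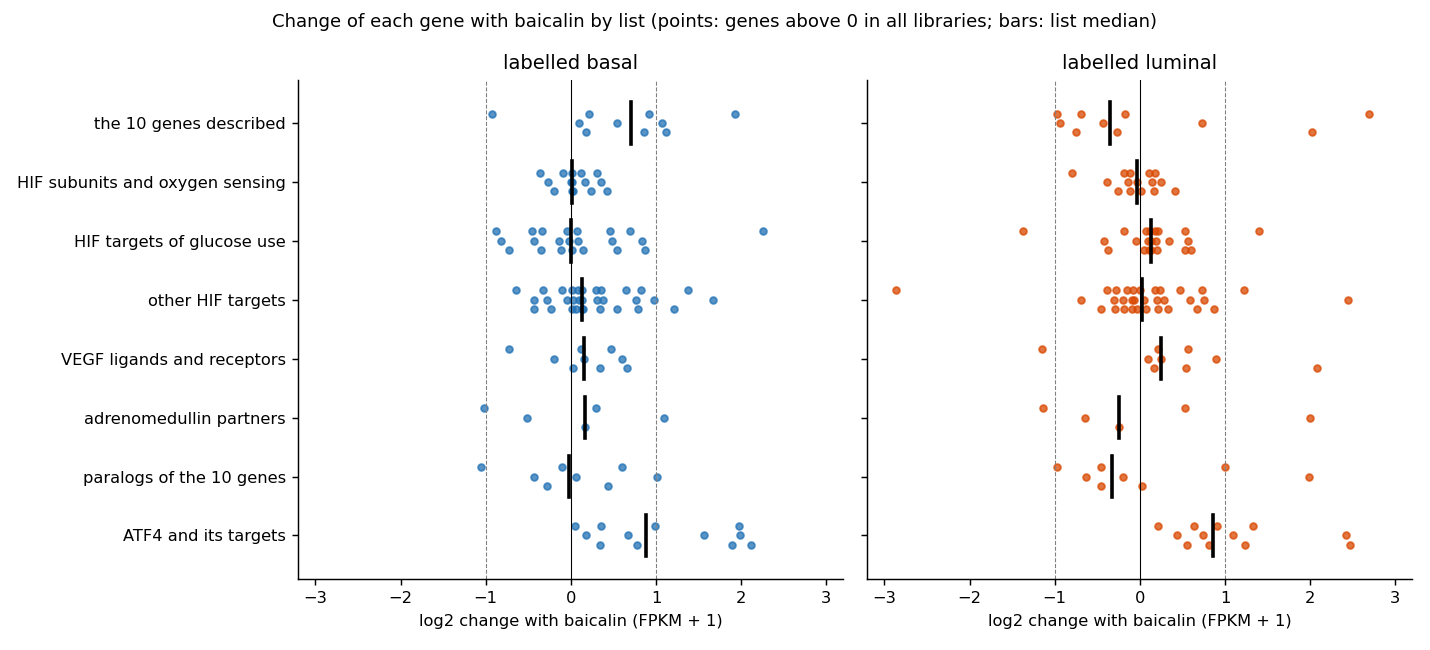
Log2 change with baicalin (FPKM + 1) of each gene by list, with the pair labelled basal on the left and the pair labelled luminal on the right. Points are genes above 0 in all libraries, black bars are medians, dashed lines mark 1, and the medians of the 10 genes are 0.70 and -0.35, while those of ATF4 and its targets are 0.88 and 0.86.

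Across all 4 libraries, the genes whose pattern lay nearest that of Vegfa were Esd, Trex2, Slc7a3, Cdkn1a and Rusc2. Nearness was the Euclidean distance between log2(FPKM + 1) values centred on each gene's mean, over 9184 genes with at least 5 FPKM in a library. Esd, an esterase that acts on glutathione conjugates, lay at a distance of 0.20, with 60.1 and 206 FPKM under the basal label and 35.0 and 134 FPKM under the luminal label. It shares near-identical stretches with 9 other genes. Cdkn1a, which encodes the cell cycle inhibitor p21, lay at 0.40, with 29.0 and 106 FPKM and with 24.7 and 72.7 FPKM. Of the 10 genes Adm came nearest to Vegfa, at 1.12 in place 130, and Car9 was farthest, at 2.97 in place 8517. Ankrd37 stayed below 5 FPKM and was not placed.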

How the data were processed

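mRNA was selected with oligo(dT) and sequenced with a strand-marking kit. The FPKM values were deposited by the authors as 1 table of 54446 genes. The paper names HISAT2, GRCm38 and featureCounts, whereas the submitters' processing notes name Bowtie 0.12.2, mm8 and GRCm38. GRCm38 was used here, and the strand setting is not given in the sources used here. Fragments were recovered from the FPKM steps and the GENCODE M21 exon length (54409 genes), and 98.9% to 99.1% of genes with at most 20 fragments came within 0.1 of a whole number. Changes are log2 ratios of FPKM + 1 over 17787 genes above 0 in all 4 libraries, and rose or fell means past 1. Ratio intervals are exact Clopper-Pearson (95%, SciPy 1.17.1). They cover counting error only, and PCR copies are not independent molecules. With 1 library per group no test was made. The recovery of depth, the intervals and the calls were tested on simulated data. Near-identical means at least 95% identity over 200 bases (minimap2 2.31). Promoter windows are RefSeq sequences on GRCm38.p6, trimmed in print to bases outside exons.

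The 10 genes and the lists were chosen with earlier results of these data known. From each list, the 3 genes with the largest change in each pair were named among those with at least 5 FPKM in a library, together with the 5 genes nearest to Vegfa. For a symbol on several rows, the row with the highest summed FPKM was used. The 7 alternatives varied the pseudocount, filter, scaling, centring and threshold.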

Additional observations from a re-analysis of the deposited data

Results flagged for a closer look

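Ndrg1, Egln3, Bnip3 and Egln1 were flagged because baicalin and DMSO differed in opposite directions under the labels, each beyond the counting error. The same pattern by counting intervals was held by 6.31% of genes, a share not matched for fragments. The changes of Egln1 were small, at 0.21 under the basal label and -0.18 under the luminal label. Of all genes kept, 25.6% lay above the first and 28.6% below the second. The log2 change under the basal label minus that under the luminal label was 1.83 for Ndrg1, 1.82 for Egln3, 1.39 for Bnip3 and 0.39 for Egln1. For Egln3, 414 fragments with baicalin and 166 with DMSO lay behind the change under the basal label, and 86 and 171 behind that under the luminal label. With 1 library per group the difference between the labels was not tested.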

How the results depend on the processing

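No paired analysis was possible because each group holds 1 library, and for the same reason no library was left out. Of the summary values recomputed, 93 stayed within the limits set for them and 43 moved. Most of these values are counts of genes, which cannot change sign. Small values outside this tally did change sign, and examples follow. Between labels with DMSO, Car9 and Egln3 went from 0.07 and 0.06 to -0.03 each on the TPM scale. With baicalin, Egln1 went from -0.013 to 0.014 after centring. The basal-pair median of the genes of glucose use went from -0.0038 to 0.054 with a pseudocount of 0.1 FPKM and 0.060 with none. That of the HIF subunits and sensing genes went from 0.016 to -0.013 on the TPM scale. Between labels with baicalin, the median of the VEGF ligands and receptors went from 0.041 to -0.017 on the TPM scale. With at least 1 FPKM required in a library it was -0.062, and that of the adrenomedullin partners went from -0.0008 to 0.22. Both filters on low values and centring on the median changed no call among the 10 genes.

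Higher and lower counts over all genes are given in the order basal pair, luminal pair, labels with DMSO and labels with baicalin. They were 383 and 592, 421 and 282, 837 and 686, and 932 and 531 as reported. With a pseudocount of 0.1 FPKM they were 1123 and 1302, 1052 and 913, 2027 and 1467, and 2030 and 1327. With no pseudocount they were 1693 and 2054, 1559 and 1537, 2872 and 1926, and 2632 and 2003. Scaled to TPM, where the added 1 weighs less, they were 696 and 1002, 718 and 578, 1306 and 1279, and 1439 and 1083. At a threshold of 2 they were 41 and 132, 60 and 46, 185 and 150, and 242 and 59.

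Among the 10 genes, 1 (Car9) fell in the basal pair with the smaller pseudocount, with none and on the TPM scale. In the luminal pair 2 (Car9 and Egln3), 3 (with Ndrg1) and 1 (Car9) fell under these settings. With DMSO 1 gene (Pdk1) was higher under the luminal label with the smaller pseudocount and with none. With baicalin Ankrd37 joined the 3 genes lower under the luminal label, its difference of -0.80 moving to -1.37 with the smaller pseudocount, -1.50 with none and -1.25 on the TPM scale. The median change of the 10 genes in the luminal pair was -0.56 with no pseudocount. At a threshold of 2, 0 of them rose in the basal pair and 0 were lower under the luminal label with baicalin, while Vegfa and Adm still rose in the luminal pair. A gene under about 1 FPKM, such as Ankrd37 under the luminal label, rests on few fragments. The median of the adrenomedullin partners moved from 0.17 to 0.35 and 0.36 in the basal pair with the smaller and no pseudocount, and from -0.24 to -0.73, -0.74 and, on the TPM scale, -0.65 in the luminal pair.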

Other observations

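Relatives of the 10 genes with a role close to theirs are given here as values, chosen after these were seen. Bnip3l, which acts in mitochondrial autophagy as Bnip3 does, was lower with baicalin under both labels, with 39.3 and 36.5 FPKM in the basal pair and 31.8 and 27.5 FPKM in the luminal pair. Car12, a surface carbonic anhydrase like Car9, was lower under both as well, with 6.90 and 4.83 FPKM and with 67.4 and 48.7 FPKM. Egln2, the remaining hydroxylase of the family, had the opposite directions seen for Egln1, with 13.98 and 15.7 FPKM and with 18.5 and 16.7 FPKM. Its ratios were 1.13 (95% counting interval 1.02 to 1.24) and 0.902 (0.825 to 0.986). By counting intervals, 6.31% of genes had these directions. Bnip3l and Car12 were lower in both pairs by the same measure, as were 16% of genes. None of Bnip3l, Car12 and Egln2 passed 1 on the log2 scale in either pair.

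The opposite order, lower with baicalin under the basal label and higher under the luminal label, was held by none of the 10 genes. It was held by 3 of the 55 other HIF targets (5.45%), a share near the 5.96% of all genes. These 3 genes, which act in glycolysis, are named after their values were seen. Pkm had 456 and 258 FPKM in the basal pair and 343 and 373 FPKM in the luminal pair. Pgk1 had 190 and 149 FPKM and 132 and 144 FPKM, and Hk1 had 39.0 and 35.3 FPKM and 23.7 and 27.1 FPKM.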
